A study of Mus musculus with 90 samples.

Results

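The 6 genes described here encode the AP-1 transcription factors of the Fos family (Fos, Fosb and Fosl2) and of the Jun family (Jun, Junb and Jund). They were taken by symbol from a table of 37991 mouse gene rows, and all 6 were present and passed the filter on low counts in every region. The study measured RNA in amygdala, frontal cortex and hypothalamus of C57BL/6J resident males that had been housed with a C57BL/6J female and were parted from her 3 h before the trial. Residents met, for 5 min, either an unfamiliar BALB/cJ male confined in a wire mesh cage (intruder groups) or the same cage holding a paper cup (control groups). They were then left in the dark for 30, 60 or 120 min, and brains were taken after cervical dislocation. The 90 libraries form 18 groups of region, time and condition, with 5 libraries each except hypothalamus 30 min controls with 3 and both frontal cortex groups at 120 min with 6. All groups share the strain, the sex, the housing and the removal of the female, every control animal saw the cage, and a group taken without any cage was not analysed here. Ages are not given in the sources used here. The animal labels name 32 animals, of which 28 gave libraries of all 3 regions. The series text also says that RNA samples were pooled for the libraries without saying how, so the p-values measure the spread between these libraries.

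AP-1 factors bind DNA as pairs held together by a leucine zipper: Jun proteins can pair with each other, while Fos proteins need a Jun partner. In neurons, synaptic input raises calcium and activates kinases that act on factors already bound at the Fos promoter, so Fos mRNA appears within minutes and fades within hours, which is why it is widely used to mark recently active cells. Fosb and Junb belong to the same immediate-early class, Fosl2 (also called Fra-2) tends to follow later, Jun also answers to stress kinases, and Jund is the member that is present at a steady level in most cells.

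Gene reads per library ranged from 38.6 to 58.9 M (median 49.01 M). Levels are given as CPM, the reads of a gene scaled to a library of 1 M gene reads, after TMM scaling over all libraries, and a gene is called where its Benjamini-Hochberg adjusted p from edgeR is below 0.05. Over the 90 libraries Fos had 438 to 6266 reads and the least counted member, Fosb, had 200 to 2766. The regions were checked with summed marker CPM. Hypothalamus markers reached 801 to 2006 in hypothalamus and at most 94.7 elsewhere, and cortex markers reached 1432 to 2076 in frontal cortex. The amygdala marker list did not separate its region, with 133 to 310 in amygdala and 285 to 456 in hypothalamus. Cortex markers ran from 340 to 1341 in amygdala. Amygdala libraries also varied widely in markers of neighbouring tissue: striatum markers ran from 175 to 1862 and choroid plexus markers from 15.9 to 1772. Such spread was not limited to amygdala. Striatum markers ran from 171 to 1086 in frontal cortex, and choroid plexus markers from 5.8 to 313 there and from 23.4 to 230 in hypothalamus. The column headers carry a tag that no label explains: ISO for all 28 libraries at 30 min, CERV for the 30 at 60 min and the 32 at 120 min. A difference between 30 min and a later time therefore cannot be told apart from this tag, and the change from 60 to 120 min, which lies within 1 tag, is given beside it.

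Before the values, the stretch of DNA in front of 4 members is shown, because their mRNAs are compared over time below and because Fos, Fosb and Junb hold a short element that factors of the CREB family bind. Jun, in which that element had no match, is printed beside them. The sequences are the 250 bases before the transcription start in RefSeq, build GRCm38.p6, written 5′ to 3′ on the gene's own strand. Capitals mark TGACG, the short core of the cAMP response element, and in Jun the letters TGACATCA, which were added to the search after that promoter had been read.
Fos, chr12:85473640-85473889, plus strand: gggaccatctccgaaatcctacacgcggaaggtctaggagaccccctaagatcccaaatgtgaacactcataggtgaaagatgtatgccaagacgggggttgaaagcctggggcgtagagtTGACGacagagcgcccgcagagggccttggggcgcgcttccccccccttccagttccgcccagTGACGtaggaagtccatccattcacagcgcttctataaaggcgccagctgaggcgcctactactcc
Fosb, chr7:19310046-19310295, minus strand: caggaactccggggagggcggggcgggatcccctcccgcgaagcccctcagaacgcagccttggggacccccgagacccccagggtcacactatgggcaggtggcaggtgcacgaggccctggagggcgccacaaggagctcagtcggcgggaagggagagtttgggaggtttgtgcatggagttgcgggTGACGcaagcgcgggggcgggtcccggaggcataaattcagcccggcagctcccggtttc
Junb, chr8:84978749-84978998, minus strand: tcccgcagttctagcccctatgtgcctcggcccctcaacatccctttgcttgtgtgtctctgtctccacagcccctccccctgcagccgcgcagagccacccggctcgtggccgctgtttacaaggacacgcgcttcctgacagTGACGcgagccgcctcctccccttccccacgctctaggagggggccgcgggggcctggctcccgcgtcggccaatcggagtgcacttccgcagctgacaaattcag
Jun, chr4:95052223-95052472, minus strand: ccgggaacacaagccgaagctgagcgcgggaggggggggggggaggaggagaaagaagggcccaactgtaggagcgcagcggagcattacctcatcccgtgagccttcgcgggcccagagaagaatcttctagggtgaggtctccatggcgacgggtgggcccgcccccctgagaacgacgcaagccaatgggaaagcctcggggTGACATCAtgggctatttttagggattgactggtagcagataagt
TGACG begins 129 and 66 bases before the Fos start, 60 bases before that of Fosb and 106 bases before that of Junb. The windows searched had 300 bases, of which 50 follow the start, and both strands were read. TGACG had no match in the windows of Fosl2, Jun and Jund. Of 32851 promoter windows in the same table, 20.8% hold TGACG, so its presence is common. The full element TGACGTCA (in 1.79% of windows; it contains TGACG), the AP-1 site TGACTCA (5.2%) and the CArG box bound by serum response factor (1.63%) had no match in the 6 windows. TGACATCA, found 45 bases before the Jun start, is in 3.62% of windows. Relative to the Gencode M21 start the RefSeq start lies at 671 bases on the chromosome for Fosl2 and at -1210 bases for Jund, so the windows of these genes rest on a different start. A match describes letters and not a bound site. Elements farther than 250 bases before the start, of the CArG box or any other kind, lie outside the windows. A missing match says nothing about them.

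In Gencode M21 (GRCm38) the gene bodies are Fos at chr12:85473890-85477273, Fosb at chr7:19302696-19310051, Fosl2 at chr5:32135801-32157842, Jun at chr4:95049034-95052222, Junb at chr8:84974484-84978718 and Jund at chr8:70698949-70700616. Junb overlaps the oppositely transcribed Prdx2 over 351 bases, and Prdx2 had up to 10284 reads. Jun overlaps the antisense RNA Junos over 689 bases (at most 67 reads), and Jund overlaps Gm11175 over 919 bases (at most 119 reads). The libraries are stranded, but the strand setting of the counting is not given in the sources used here. Reads of such pairs may therefore not be fully separated.

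In control animals 5 members had their highest mean in frontal cortex and their lowest in hypothalamus, and Jun had its highest in amygdala; on plain gene totals the mean of Jund was 126.0 CPM in amygdala and 125.5 in frontal cortex. Levels below are means of the 3 time means. Fos stood at 48.4 CPM in frontal cortex, 27.3 in amygdala and 22.03 in hypothalamus (pooled within-time SD 6.86, 4.91 and 2.21; n = 16, 15 and 13). Junb had the widest span, with 80.2 CPM in frontal cortex, 46.8 in amygdala and 16.7 in hypothalamus (SD 12.2, 9.27 and 1.93). Fosb (26.1, 17.8 and 7.67 CPM; SD 3.94, 2.22 and 0.543) and Fosl2 (56.0, 39.8 and 26.7 CPM; SD 8.62, 3.44 and 3.31) had the same order of regions. Jun had another order: 78.1 CPM in amygdala, 49.1 in hypothalamus and 43.4 in frontal cortex (SD 17.9, 3.54 and 5.31). Jund was nearly flat, with 134 CPM in frontal cortex, 127 in amygdala and 110 in hypothalamus (SD 7.17, 15.2 and 6.16).

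These contrasts were tested within animals over all 90 libraries. Against frontal cortex, amygdala was lower for Fos by a log2 fold change of -0.86 (SE 0.091, adjusted p = 7.0e-12), for Junb by -0.78, for Fosb by -0.52 and for Fosl2 by -0.45, and it was higher for Jun by 0.83 (SE 0.076, adjusted p = 7.1e-14). Jund did not pass there (-0.08, adjusted p = 0.155). Against frontal cortex, hypothalamus was lower for Junb by -2.28 (SE 0.102, adjusted p = 1.7e-26), for Fosb by -1.75, for Fos by -1.20, for Fosl2 by -1.05 and for Jund by -0.27 (adjusted p = 1.6e-05). Jun was higher in hypothalamus than in frontal cortex by 0.18 (SE 0.082, adjusted p = 0.0404), a call that was lost without the low-count filter and in 9 of 16 fits that left out an animal (adjusted p = 0.0308 to 0.0718). Amygdala was called higher than hypothalamus for all 6 members with TMM scaling, and for the 5 other than Jund on plain totals, from 0.19 for Jund (adjusted p = 0.00198) and 0.35 for Fos (adjusted p = 0.00164) to 1.49 for Junb. Regional differences were the rule among all genes: 68.3% of 18337 genes were called between amygdala and frontal cortex (5 of 6 members), 81.8% between hypothalamus and frontal cortex (6 of 6 members), and 36.8% were called higher in amygdala than in hypothalamus (6 of 6 members). On plain gene totals, without scaling factors, the median log2 change of all genes between hypothalamus and frontal cortex moved from 0.02 to 0.22, and the share of calls that were higher in hypothalamus from 51.7% to 67.1%. The share of calls that were higher in amygdala moved from 53.1% to 67.1% against frontal cortex and from 50.7% to 35.1% against hypothalamus. Jund then lost its calls between hypothalamus and frontal cortex (-0.06, adjusted p = 0.251) and between amygdala and hypothalamus (0.07, adjusted p = 0.239). Jun in hypothalamus against frontal cortex was 0.38 (adjusted p = 2.6e-05) and Fos in amygdala against hypothalamus 0.23 (adjusted p = 0.0324), and the other members kept their calls and directions. Fewer cells of a type and less RNA per cell cannot be told apart in such bulk samples.

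Per kb of exonic length, which allows genes to be compared, Jund was the most abundant member, at 66.2 to 80.4 CPM per kb in the 3 control regions. Junb followed in frontal cortex with 34.8 CPM per kb, ahead of Fos with 20.6 and Jun with 13.6. In hypothalamus Jun was second with 15.4 CPM per kb, and Fos and Junb stood at 9.37 and 7.24. Fosb was the scarcest in every region, at 1.23 to 4.18 CPM per kb.

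**Figure D1:**
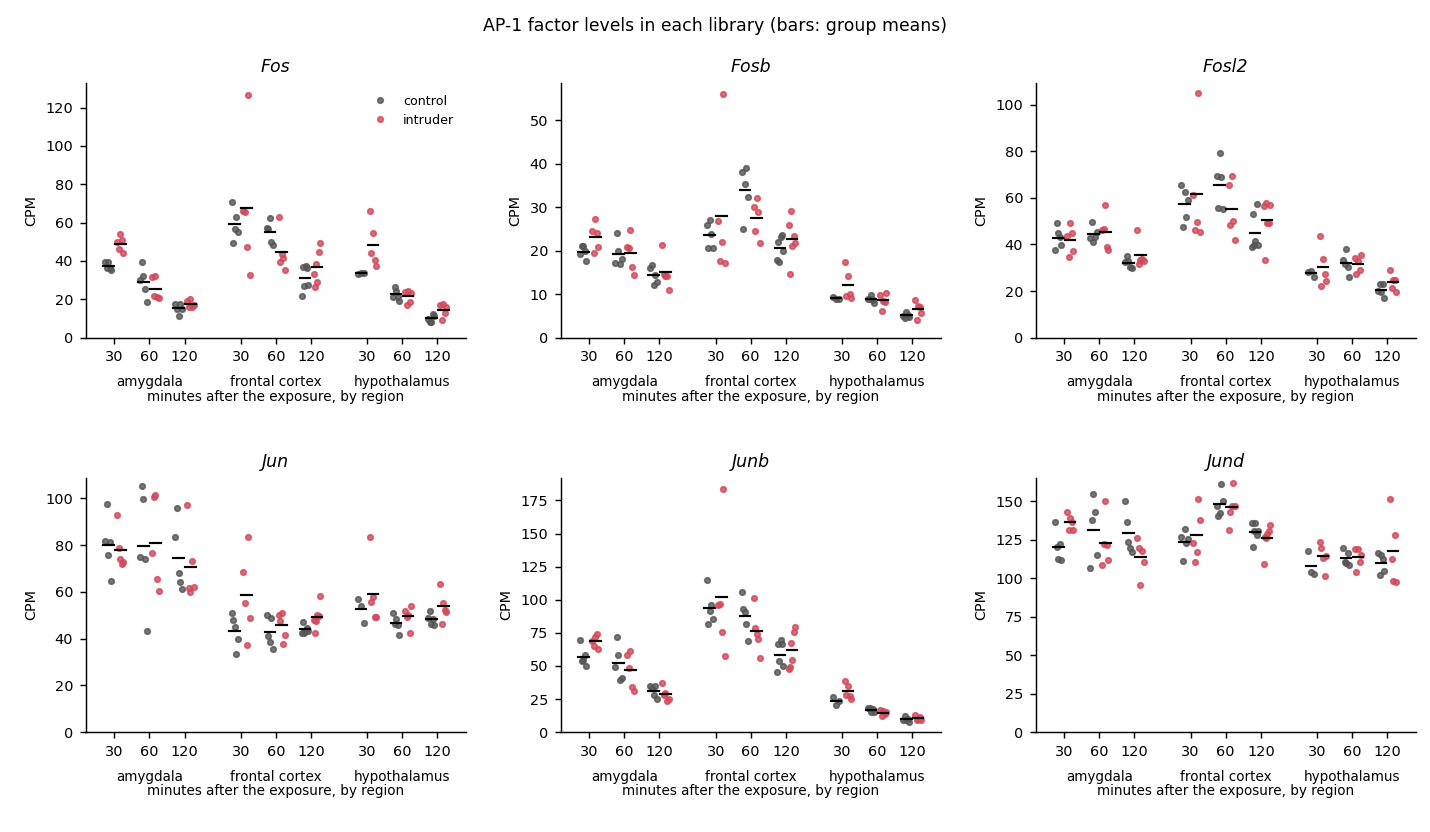
Levels of the 6 AP-1 factors in CPM (linear axes from 0) by region at 30, 60 and 120 min, 1 point per library, with control (grey) and intruder (red) groups side by side and a bar at each group mean. Fos and Junb stand lower at 120 than at 30 min in all 3 regions and both conditions, while Jund stays between 95.9 and 162 CPM.

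With time after the cage, Fos and Junb fell, in residents that had seen a paper cup as well as in those that had seen a male. Among controls Fos at 120 min was 0.300 of its 30 min fitted mean in hypothalamus, 0.411 in amygdala and 0.525 in frontal cortex. Junb, a Jun protein that often pairs with Fos, stood at 0.408, 0.549 and 0.621. Jun and Jund were not called between 30 and 120 min in any region or condition. Of the fits without 1 library, 1 called Jun in frontal cortex intruder libraries (without intruder 3 at 30 min, adjusted p = 0.0358) and 1 called Jund in amygdala intruder libraries (without intruder 1 at 120 min, adjusted p = 0.0471).

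In hypothalamus the Fos values at 120 min lay below all those at 30 min in both conditions. In controls the 30 min libraries had 33.0, 33.9 and 33.7 CPM. The 60 min libraries had 21.3, 26.7, 24.4, 21.3 and 19.1 CPM, and the 120 min libraries had 9.84, 8.36, 8.35, 12.2 and 11.4 CPM. The 3 control times did not overlap, and the log2 change from 30 to 120 min was -1.74 (SE 0.182, adjusted p = 6.1e-06). Intruder libraries had 66.1, 44.3, 54.8, 40.3 and 37.2 CPM at 30 min, 23.9, 16.98, 24.4, 18.6 and 23.6 CPM at 60 min, and 17.03, 9.26, 17.6, 13.0 and 16.0 CPM at 120 min, a change from 30 to 120 min of -1.74 (SE 0.163, adjusted p = 2.4e-07). Their 60 and 120 min values overlapped. Summed endothelial markers were 55.8 to 87.97 CPM in these 120 min intruder libraries, below the 101 to 110 CPM of intruder libraries at 30 min and the 88.7 to 105 CPM of controls at 120 min, and their part in the result was not tested. Junb in hypothalamus controls had 26.5, 20.6 and 23.6 CPM at 30 min and 9.35, 11.9, 9.30, 9.71 and 7.61 CPM at 120 min. Its log2 change was -1.29 in controls (SE 0.137, adjusted p = 6.1e-06) and -1.53 in intruder libraries (SE 0.123, adjusted p = 1.5e-08), again without overlap. These calls for Fos and Junb in hypothalamus held in every alternative that could be fitted and in every fit without 1 library. A block for the first library index, described below for amygdala, could not be fitted here. No first index was shared between 30 and 120 min in hypothalamus, so that index and these times cannot be told apart. Of all genes tested in hypothalamus, 0.0792% were called lower at 120 than at 30 min in controls (2 of 6 members) and 0.962% in intruder libraries (3 of 6 members).

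In amygdala, Fos in controls had 39.4, 36.1, 39.6, 36.6 and 35.2 CPM at 30 min and 17.6, 15.1, 11.2, 17.8 and 15.2 CPM at 120 min. The log2 change was -1.28 (SE 0.153, adjusted p = 9.0e-05), and in intruder libraries -1.48 (SE 0.153, adjusted p = 2.4e-06). Summed endothelial markers in intruder libraries were 111 to 147 CPM at 30 min and 62.1 to 94.1 CPM at 120 min, without overlap, and in controls 99.7 to 150.4 and 71.2 to 134 CPM, and their part in the result was not tested. At 60 min the controls spread from 18.5 to 39.4 CPM and overlapped the 30 min group. Junb fell by 0.87 on the log2 scale in controls (SE 0.171, adjusted p = 0.0270), a call that held in 1 of 10 fits without a library (adjusted p = 0.0367 to 0.0961), and by 1.26 in intruder libraries (SE 0.172, adjusted p = 5.4e-05). Called lower at 120 min were 0.0868% of all genes in controls (2 of 6 members) and 6.09% in intruder libraries (3 of 6 members). With the first library index (the i7 index named in the labels, shared by several libraries) as a block none of the amygdala time calls was kept: the Fos change was then -1.08 in controls (adjusted p = 0.640) and -1.29 in intruder libraries (adjusted p = 0.273).

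In frontal cortex, Fos in controls ran from 49.2 to 70.9 CPM (median 56.8, n = 5) at 30 min and from 21.97 to 37.4 CPM (median 32.0, n = 6) at 120 min. The groups did not overlap, and the log2 change was -0.93 (SE 0.219, adjusted p = 0.0148). Junb changed by -0.69 (SE 0.197, adjusted p = 0.0417), a call that held in 1 of 11 fits without a library (adjusted p = 0.0440 to 0.110). In intruder libraries Fos changed by -0.88 (adjusted p = 0.00660) and Junb by -0.72 (adjusted p = 0.0124), and both calls were lost without intruder library 4 at 30 min, which had 127 CPM of Fos and 183 CPM of Junb (adjusted p = 0.0565 and 0.105). Without it the log2 changes were -0.53 for Fos and -0.40 for Junb. With only the groups compared in the fit the call of Junb was lost as well (adjusted p = 0.0636). Called lower at 120 min were 2.48% of all genes in controls and 8.66% in intruder libraries, against 2 of 6 members in each. In frontal cortex no first index was shared between 30 and 120 min, so that index and these times cannot be told apart. Summed oligodendrocyte markers also differed between these times, with group medians of 2783 to 2819 CPM at 30 min and 4070 to 5198 CPM later, and their part in the result was not tested.

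Fosb was called lower at 120 than at 30 min in intruder libraries of hypothalamus and amygdala: from 12.1 to 6.58 CPM in hypothalamus (log2 change -0.88, SE 0.170, adjusted p = 0.00575, but 0.112 with only the groups compared in the fit) and from 23.2 to 15.1 CPM in amygdala (-0.62, SE 0.145, adjusted p = 0.00524). In controls its changes were -0.81 (adjusted p = 0.0845) and -0.46 (adjusted p = 0.317), and the difference between conditions is covered by the interaction tests below. Fosl2 changed by -0.43 to -0.23 across the 6 comparisons of 120 with 30 min (3 regions, both conditions), and none was called. In amygdala intruder libraries it was called (adjusted p = 0.0250) without intruder 1 at 120 min, whose 46.2 CPM stood above the 33.9 CPM of the next library.

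Within the shared header tag, from 60 to 120 min, the controls fell too. Fos changed by -0.92 in amygdala (SE 0.153, adjusted p = 0.0168; kept in 5 of 10 fits without a library, adjusted p = 0.000788 to 0.123, and lost at 0.682 with only the groups compared), by -0.81 in frontal cortex (SE 0.220, adjusted p = 0.0163) and by -1.17 in hypothalamus (SE 0.165, adjusted p = 0.00287). With the first index as a block the Fos change in amygdala was -0.84 (adjusted p = 0.606). Controls of frontal cortex and of hypothalamus shared no first index between 60 and 120 min, so index and time cannot be told apart there. Junb changed by -0.81 in hypothalamus (SE 0.123, adjusted p = 0.00461). In frontal cortex 5 of 6 members were called lower: besides Fos these were Fosb (-0.71, adjusted p = 0.0208), Fosl2 (-0.54, adjusted p = 0.0377), Junb (-0.58, adjusted p = 0.0420) and Jund (-0.19, adjusted p = 0.0419). The calls of Fosl2, Junb and Jund were kept in 4, 3 and 4 of 11 fits without a library, that of Fosb in 10 (adjusted p = 0.0712 without control 5 at 60 min) and that of Fos in 11. Without a library, the adjusted p of Fosl2 reached 0.0919, that of Junb 0.103 and that of Jund 0.135. Of all genes, 0.0232%, 7.03% and 0.0396% were called lower in amygdala, frontal cortex and hypothalamus controls, against 1, 5 and 2 of 6 members by edgeR. DESeq2 called 3 members in amygdala controls and 4 in hypothalamus controls. In intruder libraries 0.0637%, 10% and 0.419% of genes were called lower, against 0, 1 and 0 members; the 1 was Jund in frontal cortex (-0.21, SE 0.063, adjusted p = 0.0190), a call lost without intruder 1 at 120 min (adjusted p = 0.0533) or intruder 4 at 60 min (0.0850). With the first index as a block that change was -0.32 (adjusted p = 0.0650). The counts of 0 come from edgeR, with 4 of 6 members at an unadjusted p below 0.05 in each of the 2 regions (beside 11.1% and 12.2% of all genes), 1 and 2 members called by DESeq2 and 0 by limma voom. Fos in intruder libraries changed by -0.54 in amygdala (adjusted p = 0.177), by -0.27 in frontal cortex (adjusted p = 0.390) and by -0.56 in hypothalamus (adjusted p = 0.153).

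Over all 3 times together the F test called Fos and Junb in every region and condition. In controls it called 2 members in amygdala (0.232% of all genes), 5 in frontal cortex (33.4%) and 2 in hypothalamus (0.181%). In intruder libraries it called 3 members in each region, against 12.9%, 46.1% and 1.49% of genes. In frontal cortex intruder libraries the calls of Fos and Junb were lost without library 4 at 30 min (adjusted p = 0.0605 and 0.103) and that of Jund without library 4 at 60 min (0.0757). The call of Fosb in hypothalamus intruder libraries was lost without library 1 or 3 at 30 min (adjusted p up to 0.0592) and with only the groups compared in the fit (0.0924). With only those groups the calls of Junb and Jund in frontal cortex intruder libraries (0.0557 and 0.0620) and of Junb in amygdala controls (0.147) were lost too. Fosl2 in frontal cortex controls was kept in 5 of 16 fits without a library (adjusted p = 0.0260 to 0.102), and Junb in amygdala controls was kept in 4 of 15 fits without a library (adjusted p = 0.0244 to 0.127). The frontal cortex counts stand against a background in which a large share of genes was called. Fosb in frontal cortex controls was highest at the middle time, with 23.6 ± 2.98 CPM at 30 min, 34.0 ± 5.72 at 60 min and 20.7 ± 2.65 at 120 min (SD, n = 5, 5 and 6; F test adjusted p = 0.0195). That call was lost without control 1 or control 5 at 60 min (adjusted p = 0.0530 and 0.0616). In intruder libraries Fosb had 27.98 ± 16.1, 27.6 ± 4.22 and 22.7 ± 4.90 CPM.

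**Figure D2:**
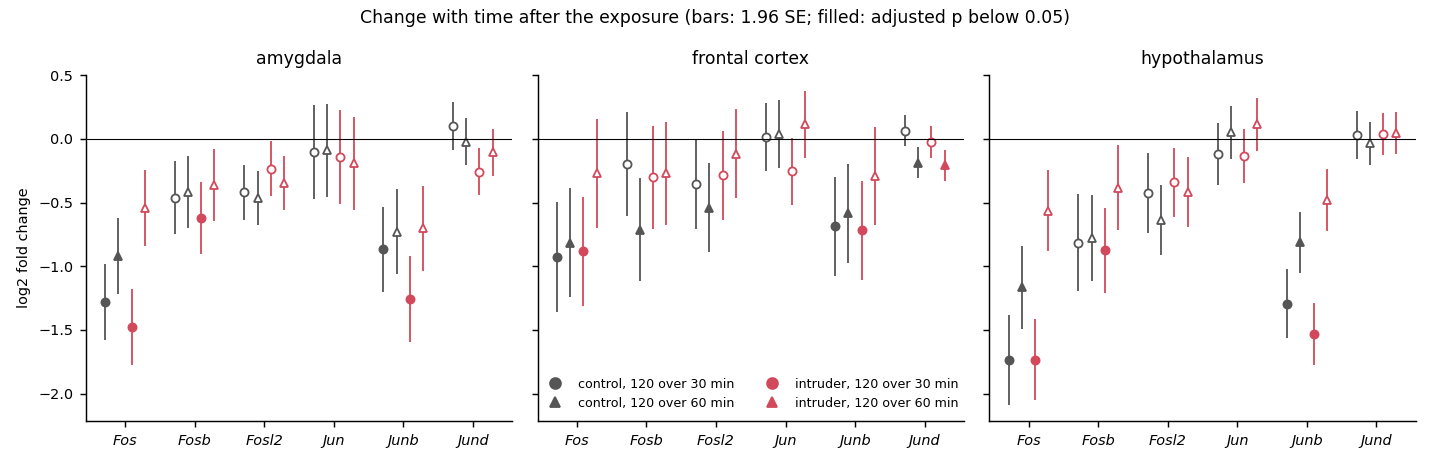
Log2 change of each AP-1 factor at 120 min against 30 min and against 60 min, by region and condition, with 95% intervals from the edgeR fit and filled points for called changes. Fos lies lowest in hypothalamus, at -1.74 in both conditions, and Jun and Jund lie between -0.12 and 0.10 from 30 to 120 min in controls.

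The change with time was compared between regions in controls. Fos fell by 1.74 in hypothalamus, 1.28 in amygdala and 0.93 in frontal cortex on the log2 scale, but the test of the difference did not pass (unadjusted p = 0.00549, adjusted p = 0.0957). Junb had an unadjusted p of 0.0194 and an adjusted p of 0.187. So 0 of 6 members were called by edgeR (2 at an unadjusted p below 0.05, beside 16.9% of all genes, and 0 by limma voom), against 3.4% of all genes. Fos was called (adjusted p = 0.0473) without the 120 min control animal 1. For 120 against 60 min 0 members were called, 0 were at an unadjusted p below 0.05 and limma voom called 0, against 4.2% of genes.

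The intruder comparison asks whether seeing a male changed these mRNAs beyond what the cage with a cup did. No member passed the adjusted threshold in any of 9 comparisons, and the 2 largest differences were those of Fos in hypothalamus, at 30 and at 120 min. Among 54 tests by edgeR 0 were called and 6 had an unadjusted p below 0.05: 5 of 18 at 30 min, 0 of 18 at 60 min and 1 of 18 at 120 min. In amygdala, frontal cortex and hypothalamus these were 1, 1 and 3 members at 30 min, beside 2.74%, 6.28% and 1.92% of all genes, and 0, 0 and 1 at 120 min, beside 15.1%, 5.34% and 11.5%. At 60 min the shares of all genes were 7.13%, 2.54% and 2.22%. DESeq2 and limma voom each called 0 of 54. Of all genes edgeR called 0.0% at 30 and at 60 min in each region, and at 120 min 0.538% in amygdala, 0.192% in hypothalamus and 0.0% in frontal cortex. These last shares are 93, 34 and 0 genes, against 409, 100 and 0 by DESeq2 and 80, 31 and 0 by limma voom, and without 1 library edgeR called 6 to 218, 19 to 53 and 0 to 20 in the same order. Group means were higher with the intruder in 16 of 18 tests at 30 min, in 6 at 60 min and in 14 at 120 min. The median log2 fold change of all genes lay between -0.0078 and 0.0032 in the 9 comparisons. These tests are not independent, since members vary together and regions came from the same animals. At 30 min Fos, Fosb, Fosl2 and Junb in frontal cortex turned lower with the intruder when its library 4 was left out.

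Fos in amygdala at 30 min had 39.4, 36.1, 39.6, 36.6 and 35.2 CPM in controls. Intruder libraries had 50.2, 46.1, 53.8, 50.7 and 44.0 CPM, and all 5 lay above every control. The means were 37.4 ± 1.99 and 49.0 ± 3.90 CPM (SD, n = 5 each), a log2 fold change of 0.39 (SE 0.149, unadjusted p = 0.0144, adjusted p = 1.00). In hypothalamus at 30 min the 3 controls had 33.0, 33.9 and 33.7 CPM and the 5 intruder libraries 66.1, 44.3, 54.8, 40.3 and 37.2 CPM. Here too the groups did not overlap, and the log2 fold change was 0.53 (SE 0.183, 95% interval 0.18 to 0.89, unadjusted p = 0.00703, adjusted p = 1.00). Among the 6 members, groups without overlap were 1 in amygdala and 1 in hypothalamus at 30 min and 0 in each other comparison. The share of all genes without overlap in amygdala was 0.776%, 0.376% and 3.13% at 30, 60 and 120 min. It was 1.03%, 0.369% and 0.246% in frontal cortex and 3.22%, 0.458% and 1.3% in hypothalamus, where the 30 min controls are 3 libraries.

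Hypothalamus Fos at 120 min had 9.84, 8.36, 8.35, 12.2 and 11.4 CPM in controls and 17.03, 9.26, 17.6, 13.0 and 16.0 CPM with the intruder. Intruder library 2 lay within the controls and the other 4 above them, and the log2 fold change was 0.54 (SE 0.166, 95% interval 0.21 to 0.86, unadjusted p = 0.00332, adjusted p = 0.246). Between these groups the summed endothelial markers did not overlap either (55.8 to 87.97 CPM with the intruder, 88.7 to 105 CPM in controls), and their part in the result was not tested. At 60 min the means were 22.5 ± 2.99 and 21.5 ± 3.46 CPM (SD, n = 5 each; log2 fold change -0.07, 95% interval -0.38 to 0.25). In amygdala Fos had means of 29.1 and 25.6 CPM at 60 min (log2 fold change -0.18) and 15.4 and 17.6 CPM at 120 min (0.19). The amygdala groups overlapped at both later times.

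Junb in hypothalamus at 30 min had 26.5, 20.6 and 23.6 CPM in controls and 38.4, 28.02, 34.95, 27.4 and 24.9 CPM with the intruder. Intruder library 5 lay below the highest control, and the log2 fold change was 0.38 (SE 0.138, unadjusted p = 0.00983, adjusted p = 1.00). Fosb there had means of 9.04 and 12.1 CPM (log2 fold change 0.42, unadjusted p = 0.0423), and without intruder library 1 the log2 fold change was 0.25 (unadjusted p = 0.180). At 60 min neither stood higher with the intruder, with log2 fold changes of -0.19 for Junb and -0.04 for Fosb. At 120 min they were 0.14 and 0.36, with adjusted p of 0.669 and 0.435.

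In frontal cortex the 30 min intruder group was spread most widely, with 1 library far above the rest. Its Fos values were 66.2, 65.3, 47.4, 127 and 32.7 CPM against 70.9, 49.2, 56.8, 63.1 and 55.3 CPM in controls. The group holds both the highest and the lowest Fos value of that time, and the fold change was 0.20 on the log2 scale (SE 0.227). Without intruder library 4 it was -0.16, and Fosb, Fosl2 and Junb went from 0.24, 0.10 and 0.12 to -0.17, -0.18 and -0.21. Jun stood apart from these: its values were 68.3, 55.4, 37.2, 83.6 and 48.7 CPM with the intruder and 50.8, 47.9, 44.8, 33.4 and 39.8 CPM in controls. The log2 fold change of Jun was 0.44 (SE 0.141, unadjusted p = 0.00416, adjusted p = 0.771) and 0.27 without library 4 (unadjusted p = 0.0437). At 60 min Fos, Fosb, Fosl2 and Junb had lower means with the intruder in frontal cortex (log2 fold changes -0.30, -0.31, -0.26 and -0.21), and none was called. At 120 min all intruder libraries there carried 1 first index and all controls another, so first index and condition cannot be told apart.

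Jund had 121 ± 10.1 and 136 ± 5.02 CPM in control and intruder amygdala at 30 min (SD, n = 5 each, log2 fold change 0.18, unadjusted p = 0.0719). At 120 min it had 130 ± 13.8 and 114 ± 11.5 CPM (-0.18, unadjusted p = 0.0647). Fosl2 was within -0.26 and 0.22 in all 9 comparisons.

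**Figure D3:**
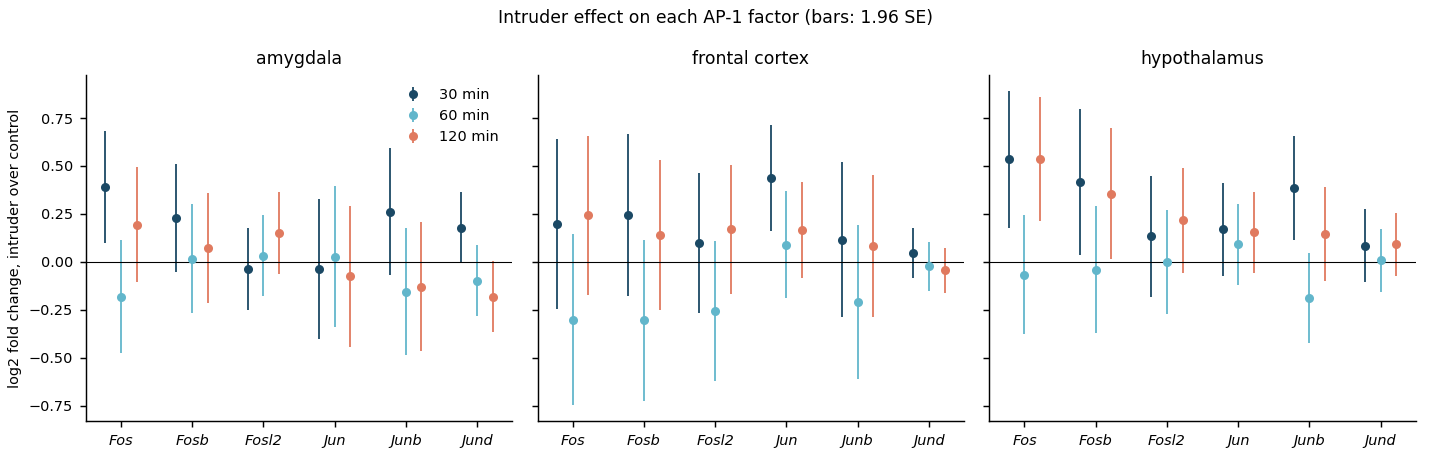
Log2 fold change of intruder against control for each AP-1 factor, by region and time, with 95% intervals from the edgeR fit. The highest values are those of Fos in hypothalamus, 0.53 at 30 min and 0.54 at 120 min, and no adjusted p was below 0.05.

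Whether the intruder effect differed between times was tested within each region. For 0 of 6 members did it pass, by edgeR, DESeq2 or limma voom. Of all genes edgeR called 0.0113% in hypothalamus and 0.0% in each other region, DESeq2 called 25 genes in hypothalamus, 157 in amygdala and 4 in frontal cortex, and limma voom called 3, 3 and 0. At an unadjusted p below 0.05 stood 2 members in amygdala (Fos 0.0361 and Jund 0.0314), 0 in frontal cortex and 2 in hypothalamus (Fos 0.0209 and Junb 0.0141), beside 12.1%, 4.45% and 5.67% of all genes. Whether it differed between regions was tested over all libraries with the animal as a block, once per time. There 0 members were called at 30, 60 or 120 min, 0 were at an unadjusted p below 0.05 and limma voom called 0, against 0.0%, 0.0% and 0.0164% of genes.

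Within a group, animals with more Fos also tended to have more of the other inducible members. After removal of the group means from log2 CPM, Fos and Junb correlated with r = 0.953 in frontal cortex (rho 0.911, n = 32, permutation adjusted p = 3e-05) and 0.788 in amygdala (rho 0.813, n = 30, adjusted p = 3e-05). In hypothalamus r was 0.475 (rho 0.451, n = 28, adjusted p = 0.0157), and 0.342 without the 2 libraries farthest from the median of Fos. Fos and Fosb had r of 0.606, 0.724 and 0.756 in amygdala, frontal cortex and hypothalamus (rho 0.654, 0.589 and 0.660; adjusted p = 0.000686, 3e-05 and 3e-05). Fos and Fosl2 had 0.364 (adjusted p = 0.0601), 0.761 and 0.580 (rho 0.373, 0.704 and 0.561; adjusted p = 3e-05 and 0.00169 in the last 2). Fos and Jun had 0.570, 0.6 and 0.642 (rho 0.420, 0.503 and 0.533; adjusted p = 0.00169, 0.000956 and 0.000575), and the amygdala value was 0.316 without the 2 farthest libraries. Fos and Jund had 0.274, 0.104 and 0.174 (rho 0.233, -0.027 and 0.182), and none of these passed. In all, 11 of 15 relations passed, by permutation test with adjustment over the 15. The unadjusted p of 1e-05 behind several of them is the smallest the permutations can give. The permutations shuffled libraries across groups and did not allow for the removed group means, so these p-values may be too small.

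**Figure D4:**
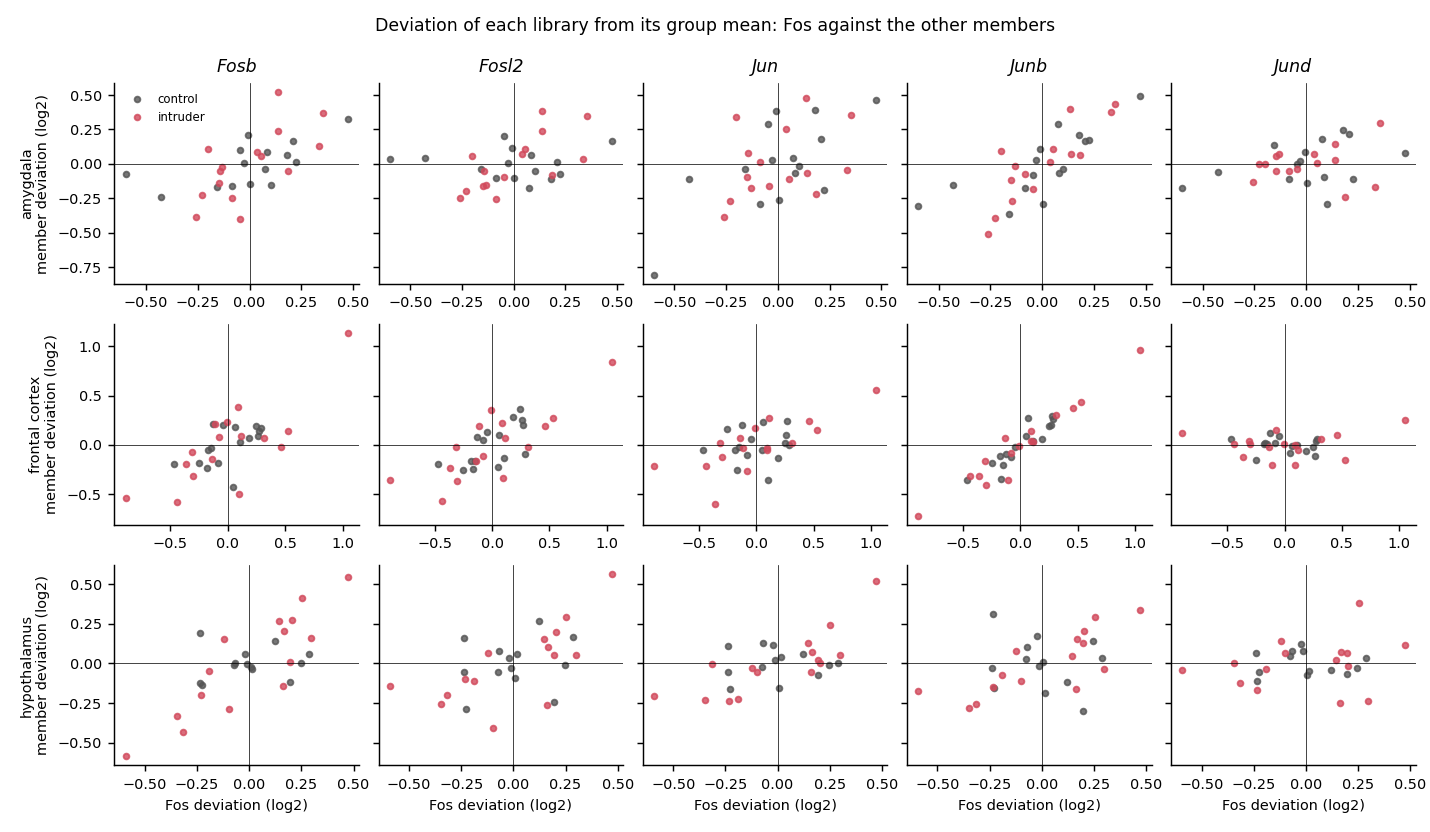
Deviation of each library from its group mean in log2 CPM, with Fos on the x axis and another AP-1 factor on the y axis, 1 row of panels per region and 1 point per library (30 amygdala, 32 frontal cortex and 28 hypothalamus). Junb in frontal cortex lies closest to a line (r = 0.953), and Jund has the lowest r in each region.

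Since regions came from the same animals, a member could also be compared between regions. Fos in amygdala and hypothalamus of the same animal deviated together, with r = 0.594 (rho 0.686, n = 28, permutation adjusted p = 0.0137) and 0.572 without the 2 farthest animals. Fos in frontal cortex had r of 0.333 with amygdala (n = 30, adjusted p = 0.188) and 0.267 with hypothalamus (n = 28, adjusted p = 0.234). The relation of Fos between amygdala and hypothalamus was the only one of 18 that passed by r with TMM scaling. Its permutations also crossed groups, so its p-value may be too small. The next relations were Jun in amygdala and hypothalamus (r = 0.5, adjusted p = 0.0658) and Jund in frontal cortex and hypothalamus (r = -0.455, adjusted p = 0.0924). That of Jun passed on plain gene totals (r = 0.55, permutation adjusted p = 0.0259) and by rho (0.516, permutation adjusted p = 0.0499).

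Jun in amygdala moved with the tissue markers of the library. Over the 30 amygdala libraries its deviations correlated with those of the summed cortex markers with r = 0.895 (rho 0.859, permutation adjusted p = 0.00072), or 0.846 without the 2 farthest libraries. With striatum markers r was -0.683 (adjusted p = 0.00072) and with oligodendrocyte markers -0.650 (adjusted p = 0.00240). Control library 6 at 60 min shows the pattern: it had 1862 CPM of striatum markers, the highest of all amygdala libraries, and 343 CPM of cortex markers, and its Jun of 43.3 CPM and Fos of 18.5 CPM were the lowest of its group. These relations were examined after the data had been seen, 72 in number, of which 7 passed, all in amygdala. The others were cortex markers with Fosb (r = 0.643), Junb (0.603) and Jund (0.593), and oligodendrocyte markers with Fosl2 (-0.572). Fos and cortex markers had r = 0.447 (adjusted p = 0.0786), or 0.175 without the 2 farthest libraries. The part of these markers in the amygdala results was not tested. Here too the permutations crossed groups, so the p-values may be too small.

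**Figure D5:**
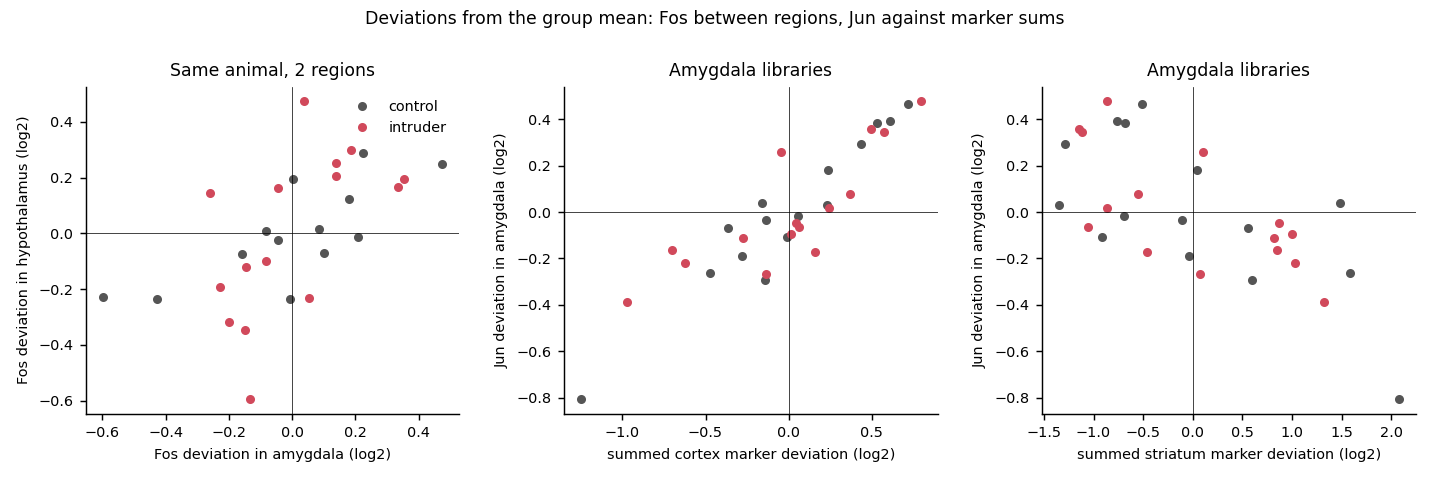
Deviations from the group mean in log2 CPM: Fos in hypothalamus against Fos in amygdala (1 point per animal), and Jun in amygdala against summed cortex and summed striatum markers (1 point per library). The relations have r = 0.594 over 28 animals, and 0.895 and -0.683 over 30 libraries.

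Genes whose group means were most like those of each member were ranked among 16635 genes over the 18 groups, with the mean of each region removed; this is a description across groups that share libraries. Nearest to Fos were Junb (r = 0.983), the nuclear receptor Nr4a1 (0.983) and 1700016P03Rik (0.978). Junb had Nr4a1 (0.986) and Fos (0.983) in front. Fosb stood nearest to the zinc finger factors Egr4 (0.939) and Egr1 (0.909), and Fosl2 to Nr4a3 (0.958) and the clock gene Per1 (0.902). Jun had lower values throughout, with Gm12207 (0.792) and Nr2f2 (0.773), the latter being on the amygdala marker list. Jund was nearest to Rsph9 (0.923) and Ntpcr (0.922). Among the members themselves, Fos had r of 0.896 with Fosb and 0.739 with Fosl2, but 0.442 with Jun and 0.174 with Jund.

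The genes around the family were followed as 3 lists. The first holds 15 other leucine zipper proteins that can pair with AP-1 factors, of which 14 were in the table and 11, 12 and 12 were tested in amygdala, frontal cortex and hypothalamus. Between intruder and control 0 of them were called in any of the 9 comparisons. Atf3, a stress-induced partner of Jun proteins, fell with time: from 30 to 120 min by 1.15 on the log2 scale in frontal cortex controls (SE 0.312, adjusted p = 0.0327), by 1.05 in frontal cortex intruder libraries (SE 0.301, adjusted p = 0.0159) and by 0.85 in amygdala intruder libraries (SE 0.236, adjusted p = 0.0154). From 60 to 120 min it fell by 1.16 in frontal cortex controls (adjusted p = 0.0162). Atf2, which pairs with Jun, rose from 30 to 120 min by 0.20 in amygdala intruder libraries (adjusted p = 0.00108), as did the antioxidant factor Nfe2l2 by 0.30 (adjusted p = 0.0217). In all, from 30 to 120 min 0, 1 and 0 partners were called in controls of amygdala, frontal cortex and hypothalamus, and 3, 4 and 0 in intruder libraries. The shares of all genes called in either direction were 0.145%, 4.42% and 0.175% in controls and 15%, 17.7% and 1.93% in intruder libraries. The median log2 change of the partners lay between -0.05 and 0.10 in these 6 comparisons, and that of all genes between -0.00171 and 0.00564.

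The second list holds 22 kinases and factors that act upstream of Fos and Jun, all tested. Between intruder and control 0 were called in any comparison. From 30 to 120 min 0 were called in controls of any region, and 4, 1 and 2 in intruder libraries of amygdala, frontal cortex and hypothalamus, against the same shares of all genes. The list's median change lay between -0.05 and 0.04. In amygdala these were the ternary complex factor Elk4 (0.35, SE 0.049, adjusted p = 7.8e-05), Creb1, which binds the cAMP response element (0.29, SE 0.048, adjusted p = 0.000384), and, lower, the kinases Map2k2 (-0.25) and Mapk7 (-0.31). Elk4 and Creb1 were also higher in hypothalamus intruder libraries, by 0.26 and 0.18 (adjusted p = 0.0226 and 0.0260). Between regions the list was mostly called, as were most genes: Mef2c, a calcium-regulated factor, was lower in hypothalamus than in frontal cortex by a log2 change of -4.13, and the calcium-dependent kinase Camk4 by -2.36.

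The third list holds 16 genes described as AP-1 targets, all tested. Of these 1 was called between intruder and control: Hmox1, heme oxygenase, was higher in intruder amygdala at 120 min by 0.42 (SE 0.097, adjusted p = 0.0441), where 0.538% of all genes were called. Fits without 1 library called 6 to 218 genes in that comparison. All its controls and intruder library 6 carried the same first index, and the other intruder libraries carried another. First index and condition can therefore hardly be told apart there. With time Timp1, a metalloprotease inhibitor, rose in hypothalamus controls by 2.50 from 30 to 120 min (SE 0.527, adjusted p = 0.0466). Inhba, an activin subunit, rose in amygdala intruder libraries by 0.95 (SE 0.264, adjusted p = 0.0162) and, from 60 to 120 min, in frontal cortex intruder libraries by 0.98 (SE 0.228, adjusted p = 0.00471). Among targets called lower, Cdk5 fell in amygdala intruder libraries from 30 to 120 min (-0.21, adjusted p = 0.00195). Between 60 and 120 min Plaur fell in frontal cortex controls (-0.65) and Cdk5 in frontal cortex intruder libraries (-0.15), where Gria2 rose (0.25). Cdk5 rose in frontal cortex intruder libraries from 30 to 120 min (0.16), and Hmox1 rose there (0.27) and in amygdala intruder libraries (0.35). From 30 to 120 min 0, 0 and 1 targets were called in controls of amygdala, frontal cortex and hypothalamus and 3, 2 and 0 in intruder libraries, with list medians between -0.13 and 0.10. The shares of all genes called were, as above, 0.145%, 4.42% and 0.175% in controls and 15%, 17.7% and 1.93% in intruder libraries, so the target counts in amygdala and frontal cortex lay near the background. Across regions Ptgs2, the inducible cyclooxygenase, was lower in hypothalamus than in frontal cortex by a log2 change of -4.60, and the granin Scg2 was higher by 2.16. Penk, Pdyn and Tac1, which encode neuropeptides, were not called between intruder and control in any region.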

How the data were processed

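The authors deposited raw counts, with 1 row per gene and 1 column per library. Per the submitters' processing notes, the tools were CASAVA 1.8.2, TopHat2 2.0.8, HTSeq 0.6.1, edgeR 3.2.4 and R 3.0.0 with build NCBIM37; their roles and the strand setting of the counting are not given in the sources used here. Per the labels' protocols, libraries were stranded mRNA libraries read single-end. The table's 5 rows that name no gene were left out: they held 8.63% to 14.5% (no feature), 0.634% to 0.761% (ambiguous) and 9.79% to 11.5% (not unique) of reads, and 0 in the others. All 90 columns were matched to samples, and Gencode M21 named 32919 of 37991 rows. Reads carry no molecular identifiers.

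Main tests came from edgeR 4.0.16 in R 4.3.3, 1 fit per region (6 groups of time and condition, filterByExpr, TMM, quasi-likelihood F test, two-sided), with 17277 amygdala genes, 17091 frontal cortex genes and 17676 hypothalamus genes tested. Contrasts between regions used all 90 libraries (18337 genes) with the animal as a block, since the labels name the animal of each library. P-values were adjusted over all genes tested. Intervals are 95% intervals from the standard error. Correlations used deviations from group means of log2(CPM + 0.5) and 100000 permutations. Pairings were permuted across groups, without allowance for the removed group means, so the p-values may be too small. The statistics were tested on simulated data, and for the correlations these data held no groups. Alternatives were DESeq2 1.42.0, voom of limma 3.58.1, no filter, other scaling, only the groups compared, blocks for replicate number and first library index, and each library left out; the contrasts of 120 with 60 min, the fit across regions on plain gene totals and the marker correlations were added after the data had been seen. Gene lists and the rule for named genes (all members, list members that were called, and the 3 genes most like each member) were, like the members, chosen with earlier results of these data known. Replicate numbers do not pair intruder with control animals: correlations of same-numbered libraries ran from -0.503 to 0.557, and in no set did every pair exceed 0.1.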

Additional observations from a re-analysis of the deposited data

Results flagged for a closer look

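Each of 102 sets of 5 or 6 libraries (a member in a group) was searched for a highest or lowest library far from the others, by the gap to its neighbour as a share of the range. Chance gives such a value in about 1 in 20 sets, and 7 values in 6 libraries were found. Frontal cortex intruder library 4 at 30 min was high in Fosb, with 56.0 CPM against 26.9 in the next library, and in Fosl2, with 105 CPM against 61.4; its Fos and Junb were also the highest of all 90 libraries. Fos in frontal cortex intruder library 1 at 60 min was 63.2 CPM, with the next at 43.4. Fosl2 was 46.2 CPM in amygdala intruder library 1 at 120 min (next 33.9) and, as the lowest of its group, 33.5 CPM in frontal cortex intruder library 2 at 120 min (next 49.0). Jun was 83.4 CPM in hypothalamus intruder library 1 at 30 min (next 57.9). Jund was 109 CPM in frontal cortex intruder library 1 at 120 min, the lowest there (next 126). All 7 lie in intruder groups; whether that differs from chance was not tested.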

How the results depend on the processing

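Of 5429 values recomputed, 0 called values reversed. Of 4665 single values 4429 were kept (direction and side of the threshold, or a CPM mean within 1 SD), 119 lost and 35 gained a call, 76 uncalled log2 fold changes and 2 uncalled correlations changed sign, and 4 control CPM means moved by over 1 SD on plain totals. Counts of members called or relations that passed moved by over 1.5 times in 73 of 764 cases, and the cause was not tested. In amygdala controls the F test over times gave 1 without the filter or with only the groups compared (main 2), and 120 against 60 min gave 3 with DESeq2, 0 with only the groups compared and 2 with the replicate block (main 1). The block for the first library index gave 0 for the F test, 120 against 30 and 120 against 60 min in amygdala controls (main 2, 2 and 1), for the F test and 120 against 30 min in amygdala intruder libraries (main 3 and 3), and for 120 against 60 min in frontal cortex intruder libraries (main 1). For 120 against 60 min in intruder libraries DESeq2 gave 1 in amygdala and 2 in hypothalamus (main 0). In frontal cortex controls 120 against 30 min gave 1 without the filter and 1 with the replicate block (main 2), and 120 against 60 min gave 3 without the filter (main 5). In frontal cortex intruder libraries only the groups compared gave 1 for the F test and 1 for 120 against 30 min (main 3 and 2). In hypothalamus controls DESeq2 gave 4 for the F test and 4 for 120 against 60 min, and the replicate block 4 for the latter (main 2 each). The replicate block moved no other count by over 1.5 times. Plain totals and Spearman's rho each gave 2 relations between regions (main 1). Without the animal block Jun lost its call between hypothalamus and frontal cortex.

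With 1 library left out, counts ran from 1 to 2 (F test, 120 against 30 min) and 0 to 1 (120 against 60 min) in amygdala controls and from 3 to 5 for 120 against 30 min in amygdala intruder libraries (5 without intruder 1 at 120 min). In frontal cortex controls they ran from 3 to 5 (F test), 1 to 2 (120 against 30 min) and 1 to 5 (120 against 60 min). In frontal cortex intruder libraries they ran from 1 to 4, 0 to 3 and 0 to 1 in the same order, with the lowest of the first 2 without intruder 4 at 30 min. The change from 30 to 120 min by region ran from 0 to 1. The first-index block could not be fitted for times in hypothalamus and, but for 120 against 60 min in intruder libraries, frontal cortex. The lowest count of any member in a library was 200 reads.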

Other observations

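Fosl1 (also called Fra-1), the remaining Fos family gene, was close to absent in these tissues: it had 0 to 35 reads per library, with a median of 0.1 CPM and a highest value of 0.614 CPM, and it passed the low-count filter in 1 region. It was therefore not described with the members.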
